A study of Mus musculus with 9 samples.

Results

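The Nodal pathway is described here through 10 of its genes, which are 2 ligands (Nodal and Gdf3), 3 secreted antagonists (Lefty1, Lefty2 and Cer1), 2 receptors (Acvr1b and Acvr2b) and 3 intracellular mediators (Smad2, Smad3 and Foxh1). They were taken by name, without a cut on their values, but with earlier results of these data known. All 10 were found among the 54232 genes of the table. Their polyadenylated RNA was measured in wild-type mouse embryonic stem cells differentiated as embryoid bodies, which are aggregates of pluripotent cells that form derivatives of the germ layers. The labels name 3 groups of 3 libraries, EBD2, EBD5 and EBD6, all of the same wild-type genotype, without giving a meaning for the number. No strain, sex or cell line is given, and separate cultures are not named, so the p-values speak of the spread among these libraries alone, and that spread may be technical.

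Nodal is a secreted protein of the TGF-beta family that patterns the early embryo and, before that, helps to keep the epiblast pluripotent. It signals through a receptor pair, of which Acvr1b encodes a type I and Acvr2b a type II chain, with an EGF-CFC protein such as Cripto (gene Tdgf1) as co-receptor. The receptors phosphorylate Smad2 and Smad3, which enter the nucleus with Smad4 and bind target genes with partners such as the forkhead factor Foxh1. Nodal and both Lefty genes are themselves targets, so the pathway drives its own ligand and its own inhibitors, and Cer1 is known as an antagonist made by the anterior visceral endoderm and by mesendoderm.

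The libraries held 5454268 to 11704761 counts. A chi-square test over genes found no difference beyond counting noise between replicates 1 and 2 of EBD2 (0.949 per gene) or between replicates 2 and 3 of EBD6 (1.01 per gene, p = 0.169), so either pair entered as 1 sample. Group means and tests thus rest on 2 samples of EBD2, 3 of EBD5 and 2 of EBD6, while values per library are given for all 9. EBD5 replicates 1 and 3 were kept apart but differed little (1.21 per gene), against 2.23 to 4.31 for the other pairs kept apart. Levels are in CPM, counts scaled to a common library size, and changes are log2 fold changes with their standard error (SE) and the Benjamini-Hochberg adjusted p of edgeR's quasi-likelihood test over the 16168 genes tested. In bulk RNA fewer cells of a type and less RNA per cell cannot be told apart. The EBD5 libraries stood apart from the others in how levels followed GC content. The 269 tested genes in the bin of GC content and length that holds Lefty1 and Foxh1 had a median log2 change of -0.85 in EBD5 against EBD2 and of 0.99 in EBD6 against EBD5, against medians of -0.01 and 0.04 over all genes. Each change of the 10 genes is therefore given again from a fit with GC and length offsets where that turned it, changed its call or moved it by more than 1.5 times. That fit was chosen after seeing the data.

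Lefty1 and Lefty2 are neighbouring copies on chromosome 1, so reads of one could be counted for the other. Their coding sequences in the GENCODE M21 transcripts, of 1104 bases each, are 91.85% identical, with 90 differences. The longest identical run is of 140 bases. Of all windows of 50 bases in the Lefty1 transcript 17.9% also occur in that of Lefty2, and 11.6% of the Lefty2 windows occur in Lefty1. The deposited counts of Lefty2 were whole numbers in every library and those of Lefty1 in all but 1, a value of 305.01 in EBD6 replicate 1. Among the other members a single count of Smad2, 932.42 in EBD6 replicate 2, was not whole.

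The upstream sequences of Cer1 and Nodal are printed because Cer1 had the largest rise of the 10 genes from EBD2 to EBD5 and Nodal is the ligand that it binds. RefSeq promoter entries (GRCm38.p6) were found for 5 of the 10 members, Nodal, Cer1, Acvr1b, Acvr2b and Smad3. Each line holds the 250 bases before the start site, 5′ to 3′ on the strand of the gene, with motif matches in capitals. The Nodal stretch lies at chr10:61417722-61417971 on the plus strand, and that of Cer1 at chr4:82885152-82885401 on the minus strand.
Nodal: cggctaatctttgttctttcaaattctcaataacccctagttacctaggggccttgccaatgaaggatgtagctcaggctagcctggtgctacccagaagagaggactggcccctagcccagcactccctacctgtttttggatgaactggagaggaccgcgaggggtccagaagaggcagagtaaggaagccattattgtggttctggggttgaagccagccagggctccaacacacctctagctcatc
Cer1: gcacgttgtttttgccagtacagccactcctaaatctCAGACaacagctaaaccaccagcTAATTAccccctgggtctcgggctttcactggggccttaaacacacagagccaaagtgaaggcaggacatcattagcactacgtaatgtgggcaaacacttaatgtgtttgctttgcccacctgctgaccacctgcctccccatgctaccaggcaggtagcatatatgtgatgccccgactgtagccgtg
The motifs searched on both strands were AATNNACA, which Foxh1 is known to bind, CAGAC, which Smad proteins bind, and TAATTA, a core bound by many homeodomain factors, which was added after the sequence had been seen. None overlaps another in these stretches. CAGAC was found in Cer1, beginning 213 bases before the start, and in 2 of the 5 members, against 42.2% of all 32851 promoter entries. TAATTA was found in Cer1 alone of the 5, beginning 190 bases before the start, against 4.84% of all entries. AATNNACA was in none of the 5 stretches and in 10.9% of all entries. The Nodal stretch held none of these motifs. Shares are over stretches of the same 250 bases.

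Nodal (ENSMUSG00000037171, chromosome 10, 61417972 to 61425338, plus strand, mm10) was highest in EBD2, lowest in EBD5 and in between in EBD6. Its level was 89.1, 86.0 and 99.1 CPM in EBD2 replicates 1 to 3, 45.5, 48.6 and 48.0 CPM in EBD5, and 67.6, 69.7 and 67.5 CPM in EBD6. No library of any group overlapped with those of another. Nodal fell 1.96-fold from EBD2 to EBD5 (log2 -0.97 ± 0.08 SE, adjusted p = 9.65e-07). It was higher in EBD6 than in EBD5 (log2 0.53 ± 0.08 SE, adjusted p = 0.000102) and lower than in EBD2 (log2 -0.44 ± 0.08 SE, adjusted p = 0.000452). With GC and length offsets the fall to EBD5 was smaller (log2 -0.51, adjusted p = 0.000151) and the difference between EBD6 and EBD5 was lost and turned in sign (log2 -0.07, adjusted p = 0.449). The fall from EBD2 to EBD6 was kept (log2 -0.59, adjusted p = 5.98e-05).

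Gdf3, which encodes a TGF-beta family ligand of pluripotent cells that acts with Nodal (ENSMUSG00000030117, chromosome 6, 122605403 to 122610087, minus strand), differed little. Its level was 97.9, 98.5 and 106.4 CPM in EBD2, 79.1, 88.4 and 84.8 CPM in EBD5, and 98.8, 91.6 and 85.7 CPM in EBD6. The EBD5 libraries all lay below those of EBD2, and the EBD6 libraries overlapped with both. Gdf3 fell 1.21-fold from EBD2 to EBD5 (log2 -0.28 ± 0.08 SE, adjusted p = 0.00711), a call lost without EBD2 replicate 3 (adjusted p = 0.0631). Neither EBD6 against EBD5 (log2 0.14 ± 0.08 SE, adjusted p = 0.114) nor EBD6 against EBD2 (log2 -0.13 ± 0.08 SE, adjusted p = 0.158) passed. The first of these passed without EBD6 replicate 3 (adjusted p = 0.0442), and the second with GC and length offsets (log2 -0.20, adjusted p = 0.0171), which gave 0.08 for the first (adjusted p = 0.263).

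**Figure D1:**
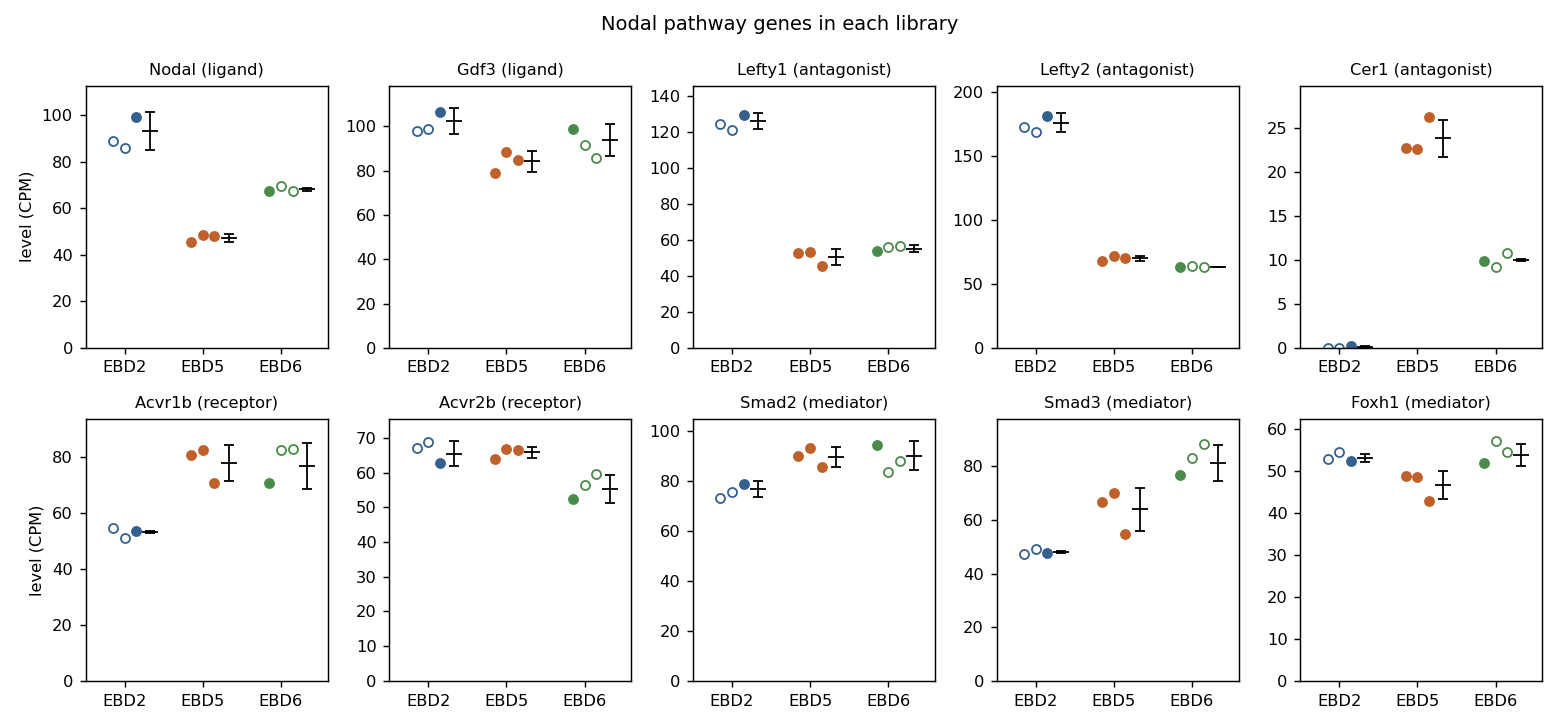
Level of each of the 10 genes in CPM (vertical axis, from 0) in the 9 libraries by group (horizontal axis). Open circles are libraries counted together as 1 sample, filled circles are the others, and the black mark with bars is the group mean ± SD over counted samples. Nodal, Lefty1 and Lefty2 are highest in EBD2, Cer1 is near 0 in EBD2 and highest in EBD5, and Smad3 is highest in EBD6.

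Both Lefty genes, whose products block Nodal receptors as feedback inhibitors, were at their highest in EBD2. Lefty2 (ENSMUSG00000066652, chromosome 1, 180893108 to 180899103, plus strand) had levels of 172.2, 168.9 and 181.2 CPM in EBD2, 68.1, 71.9 and 70.1 CPM in EBD5, and 63.2, 63.7 and 62.8 CPM in EBD6. Lefty1 (ENSMUSG00000038793, chromosome 1, 180935022 to 180938400, plus strand) had levels of 124.5, 121.1 and 129.3 CPM in EBD2, 52.9, 53.1 and 45.5 CPM in EBD5, and 53.7, 56.1 and 56.5 CPM in EBD6. For either gene the EBD2 libraries lay far above all others, and the lowest of them, at 168.9 and 121.1 CPM, compare with highest values elsewhere of 71.9 and 56.5 CPM. Lefty1 fell 2.49-fold from EBD2 to EBD5 (log2 -1.31 ± 0.08 SE, adjusted p = 9.87e-08) and Lefty2 fell 2.51-fold (log2 -1.32 ± 0.06 SE, adjusted p = 1.39e-08). From EBD2 to EBD6 Lefty1 fell 2.27-fold (adjusted p = 3.16e-07) and Lefty2 fell 2.78-fold (log2 -1.47 ± 0.06 SE, adjusted p = 1.07e-08). All 4 of these falls remained calls with GC and length offsets, but that of Lefty1 to EBD5 was much smaller (log2 -0.55, adjusted p = 8.5e-05).

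Between EBD5 and EBD6 neither Lefty gene passed, although the libraries of these groups did not overlap for either. Lefty1 had a log2 change of 0.13 ± 0.08 SE (adjusted p = 0.175) and Lefty2 of -0.15 ± 0.06 SE (adjusted p = 0.0566). For Lefty2 the fit of 9 separate libraries gave a call (log2 -0.17, adjusted p = 0.00984). Several fits of the counted samples did so too, by a narrower margin. Among these were edgeR with DESeq2 size factors (log2 -0.18, adjusted p = 0.0306) and with a filter of 5 CPM (log2 -0.16, adjusted p = 0.0305). A fit of only the groups compared was another (log2 -0.17, adjusted p = 0.0462). The call of Lefty2 thus depended on the setting. In the fit with offsets both were lower in EBD6, Lefty1 by a log2 change of -0.80 (adjusted p = 1.2e-05) and Lefty2 by -0.37 (adjusted p = 0.000278), so the direction for Lefty1 turned.

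Cer1, which encodes the secreted antagonist Cerberus-like protein that binds Nodal (ENSMUSG00000038192, chromosome 4, 82881751 to 82885148, minus strand), was nearly absent in EBD2. It had 0, 0 and 1 counts in EBD2 replicates 1 to 3, 126, 135 and 139 in EBD5, and 56, 102 and 134 in EBD6. Scaled to library size these were 22.7, 22.6 and 26.3 CPM in EBD5 and 9.86, 9.17 and 10.8 CPM in EBD6. The 3 groups thus kept apart, with EBD5 highest. With 1 count in EBD2 against 400 in EBD5 the ratio was 420 (95% counting interval 75.0 to 16648), and against the 292 counts of EBD6 it was 177 (31.5 to 7004). The intervals cover counting error only, and without EBD2 replicate 3 the gene had no count in EBD2. From EBD5 to EBD6 Cer1 fell 2.39-fold (log2 -1.25 ± 0.15 SE, adjusted p = 2.65e-05), and with GC and length offsets still fell (log2 -0.88, adjusted p = 0.000307).

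Cer1 is known as a product of the visceral endoderm and of mesendoderm. All 10 visceral endoderm markers listed were higher in EBD5 than in EBD2 and in EBD6 than in EBD2. From EBD5 to EBD6, where Cer1 fell, 6 of them fell and 3 rose (Afp, Amn and Rbp4). Summed, the 10 reached 34.8 to 35.9 CPM in the EBD2 libraries, where Apoa4 had no count. They reached 3288 to 3311 CPM in EBD5 and 1793 to 1912 CPM in EBD6. Cubn, Apob and Dab2 had the highest means in EBD5 (1125, 870 and 826 CPM) and fell to 406, 490 and 455 CPM in EBD6. The anterior visceral endoderm is the part of the visceral endoderm that secretes Nodal antagonists. Its 7 listed markers summed to 489 to 511 CPM in EBD2, where Dkk1 had no count. They summed to 852 to 908 CPM in EBD5 and 360 to 375 CPM in EBD6. All 7 were higher in EBD5 than in EBD2, and 6 fell from EBD5 to EBD6. In EBD6 against EBD2 4 were higher and 3 lower, so the lower sum in EBD6 does not hold for most of the list. Otx2 (mean 246.7 CPM) and Sfrp1 (229.1 CPM) made up most of the EBD2 sum. Lhx1 (0.472 CPM), Gsc (1.24 CPM) and Sfrp5 (1.01 CPM) were near 0 there. Of the 7, Hhex, Lhx1, Otx2 and Gsc are also among the pathway targets below, and the list holds none of the 10 genes. The part of these cells in the change of Cer1 was not tested.

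Acvr1b, the gene of a type I receptor for Nodal and activin (ENSMUSG00000000532, chromosome 15, 101174067 to 101213684, plus strand), was lowest in EBD2. It stood at 54.6, 51.1 and 53.5 CPM in EBD2, 80.5, 82.4 and 70.6 CPM in EBD5, and 70.8, 82.4 and 82.7 CPM in EBD6. Every EBD2 library lay below all others, while EBD5 and EBD6 overlapped. Acvr1b rose 1.47-fold to EBD5 (log2 0.55 ± 0.09 SE, adjusted p = 0.000268) and was 1.46-fold higher in EBD6 than in EBD2 (log2 0.55 ± 0.10 SE, adjusted p = 0.000426). Under the GC and length offsets the latter was smaller (log2 0.29, adjusted p = 0.0122). EBD6 against EBD5 did not pass (log2 -0.01 ± 0.09 SE, adjusted p = 0.963) but did with the offsets (log2 -0.45, adjusted p = 0.000605).

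Acvr2b, the gene of a type II receptor (ENSMUSG00000061393, chromosome 9, 119402118 to 119434995, plus strand), had nearly the same level in EBD2 and EBD5 and a lower one in EBD6. It stood at 67.0, 68.9 and 62.9 CPM in EBD2, 64.0, 66.9 and 66.5 CPM in EBD5, and 52.5, 56.3 and 59.6 CPM in EBD6. The libraries of EBD2 and EBD5 overlapped and those of EBD6 lay below both. The change from EBD2 to EBD5 did not pass (log2 0.00 ± 0.08 SE, adjusted p = 0.988), though with GC and length offsets Acvr2b was higher in EBD5 (log2 0.34, adjusted p = 0.000743). It was lower in EBD6 than in EBD5 (log2 -0.24 ± 0.08 SE, adjusted p = 0.0151) and than in EBD2 (log2 -0.24 ± 0.08 SE, adjusted p = 0.0228). Both calls were lost with no filter on low counts (adjusted p = 0.134 and 0.160), and the second with DESeq2 too (adjusted p = 0.0991). Without EBD6 replicate 1, which leaves 1 sample in EBD6, both changes were smaller (log2 -0.17 and -0.16). With the offsets the first was larger (log2 -0.68, adjusted p = 6.59e-06).

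Smad3, a mediator, was lowest in EBD2 and highest in EBD6. Smad3 (ENSMUSG00000032402, chromosome 9, 63646767 to 63757994, minus strand) stood at 47.2, 49.3 and 47.7 CPM in EBD2, 66.9, 70.2 and 55.0 CPM in EBD5, and 76.6, 83.0 and 88.5 CPM in EBD6. The 3 groups did not overlap. Smad3 rose from EBD2 to EBD5 (log2 0.42 ± 0.10 SE, adjusted p = 0.00402) and from EBD5 to EBD6 (log2 0.35 ± 0.10 SE, adjusted p = 0.0067), and was 1.71-fold higher in EBD6 than in EBD2 (log2 0.77 ± 0.11 SE, adjusted p = 7.61e-05). Once GC and length offsets were added, the step from EBD5 to EBD6 was lost (log2 0.06, adjusted p = 0.556), and the difference between EBD6 and EBD2 remained a call (log2 0.62, adjusted p = 0.000188).

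Smad2 (ENSMUSG00000024563, chromosome 18, 76241580 to 76310963, plus strand), the closest relative of Smad3 in the pathway, was lowest in EBD2. It stood at 73.5, 75.5 and 79.1 CPM in EBD2, 90.2, 93.3 and 85.6 CPM in EBD5, and 94.4, 83.8 and 88.1 CPM in EBD6. All EBD2 libraries lay below the others, and EBD5 and EBD6 overlapped. Smad2 was 1.17-fold higher in EBD5 (log2 0.23 ± 0.07 SE, adjusted p = 0.0137) and in EBD6 (log2 0.23 ± 0.08 SE, adjusted p = 0.0199) than in EBD2, and neither call held with DESeq2 (adjusted p = 0.0572 and 0.129). EBD6 against EBD5 did not pass (log2 -0.00 ± 0.07 SE, adjusted p = 0.973). With GC and length offsets the rise to EBD5 was lost (log2 0.04, adjusted p = 0.642) and Smad2 was higher in EBD6 than in EBD5 (log2 0.21, adjusted p = 0.0184).

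Foxh1, the gene of the DNA-binding partner of the Smad proteins (ENSMUSG00000033837, chromosome 15, 76668225 to 76669948, minus strand), stayed within a narrow range. It stood at 52.9, 54.5 and 52.5 CPM in EBD2, 48.7, 48.6 and 42.9 CPM in EBD5, and 52.0, 57.1 and 54.4 CPM in EBD6. The EBD5 libraries lay below all others, and EBD2 and EBD6 overlapped. Foxh1 did not pass from EBD2 to EBD5 (log2 -0.18 ± 0.08 SE, adjusted p = 0.0663) or from EBD2 to EBD6 (log2 0.03 ± 0.09 SE, adjusted p = 0.798). It was higher in EBD6 than in EBD5 (log2 0.21 ± 0.08 SE, adjusted p = 0.0353), a call lost without EBD5 replicate 1 (adjusted p = 0.0655), EBD5 replicate 3 (0.133), EBD6 replicate 2 (0.0622) or EBD2 replicate 3 (0.0508), and with DESeq2 (0.253). Counting EBD5 replicates 1 and 3 as 1 sample lost the call too (adjusted p = 0.0661). In the fit with offsets both changes that involve EBD5 turned and passed, at a log2 change of 0.58 for EBD5 against EBD2 (adjusted p = 4.56e-05) and of -0.72 for EBD6 against EBD5 (adjusted p = 1.07e-05). They gave -0.14 for EBD6 against EBD2, which did not pass (adjusted p = 0.122).

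**Figure D2:**
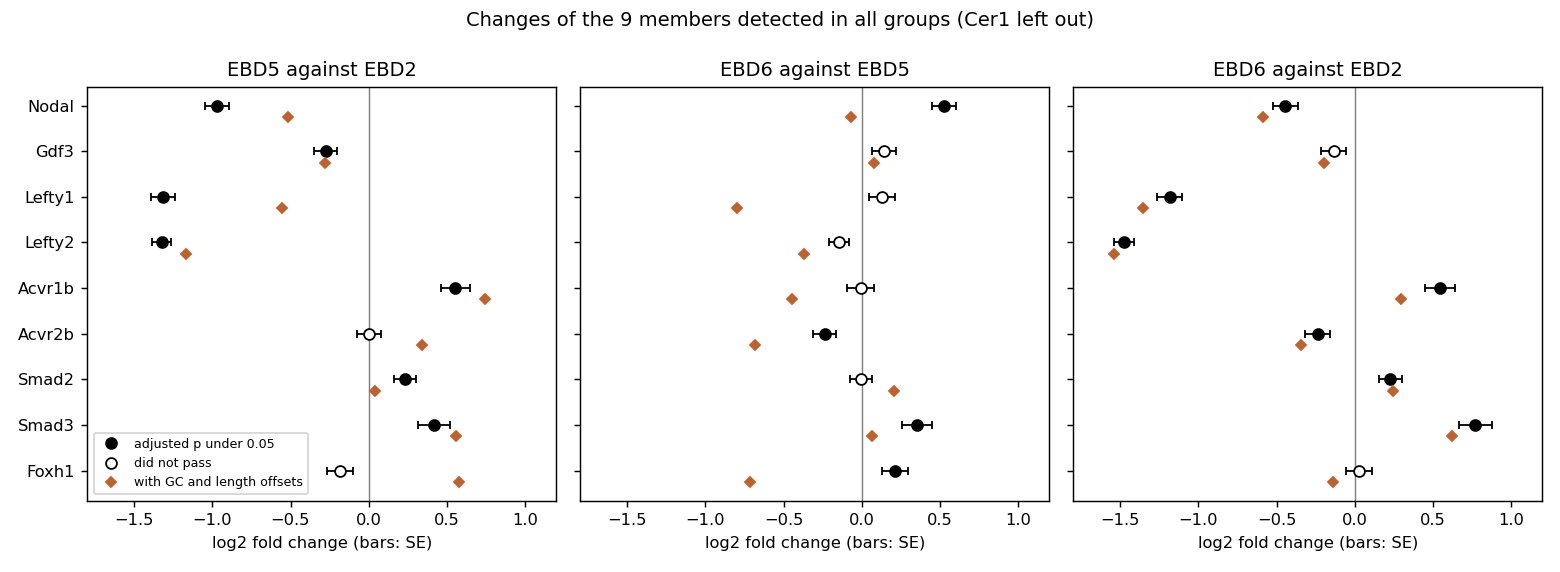
Log2 fold changes (horizontal axis) of the 9 genes other than Cer1 (vertical axis) in the 3 comparisons, with bars for the SE. Black points passed the test, open points did not, and orange diamonds are the values with GC and length offsets. In EBD6 against EBD2 each diamond of a black point lies on the same side of 0 as that point, while for Nodal, Lefty1, Smad2 and Foxh1 the sides differ in EBD6 against EBD5.

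Counted over the 10 genes, 4 rose (Cer1, Acvr1b, Smad2 and Smad3) and 4 fell (Nodal, Gdf3, Lefty1 and Lefty2) from EBD2 to EBD5, where 70.0% of all tested genes were called, 34.9% higher and 35.1% lower. From EBD5 to EBD6 3 rose (Nodal, Smad3 and Foxh1) and 2 fell (Cer1 and Acvr2b), where 70.2% of all genes were called, 36.9% higher and 33.3% lower. In EBD6 against EBD2 4 were higher (Cer1, Acvr1b, Smad2 and Smad3) and 4 lower (Nodal, Lefty1, Lefty2 and Acvr2b), where 66.1% of all genes were called, 33.8% higher and 32.3% lower. The 8, 5 and 8 of 10 members called lay above, below and above these shares. The libraries of the groups did not overlap for 9 members from EBD2 to EBD5 (77.8% of all genes), 7 from EBD5 to EBD6 (76.0%) and 8 from EBD2 to EBD6 (74.3%). The median log2 change of the members was -0.09, 0.06 and -0.05 in the 3 comparisons, against -0.01, 0.04 and 0.01 over all genes. Under the GC and length offsets the counts risen and fallen were 5 and 4 from EBD2 to EBD5, 1 and 6 from EBD5 to EBD6, and 4 and 5 from EBD2 to EBD6. The comparisons share their groups of samples and are not independent.

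Per kilobase of exon, which allows levels of different genes to be compared, Lefty1 (71.7 CPM per kb) and Lefty2 (67.4) led in EBD2, followed by Nodal (44.5), Gdf3 (42.2) and Foxh1 (38.9). The library ranges overlapped between Lefty1 and Lefty2 and between Nodal and Gdf3, and the other neighbours among these 5 were apart. Receptors and Smad genes were lower there, from 16.7 CPM per kb for Acvr2b to 8.66 for Smad3, which overlapped with Smad2 (8.75). In EBD5 the order began with Gdf3 (34.7) and Foxh1 (34.2), whose ranges overlapped, ahead of Lefty1 (28.7) and Lefty2 (26.8), which also overlapped, and Nodal (22.6), and Cer1 had reached 13.7 CPM per kb, above Smad3 (11.6) and Smad2 (10.2). In EBD6 Foxh1 (39.4) and Gdf3 (38.7), again overlapping, were followed by Nodal (32.5), Lefty1 (31.3), Lefty2 (24.2) and then Acvr1b (17.4), with Cer1 last (5.71). Nodal lay below both Lefty genes in EBD2 and EBD5 and above both in EBD6. The lead over Lefty1 in EBD6 was narrow, with a lowest Nodal library of 32.23 and a highest Lefty1 library of 32.15 CPM per kb. Lengths are the union of all annotated exons, so a gene with long unused exons is set too low. These levels carry no GC and length offsets, which moved Lefty1 and Foxh1 upward in EBD5 against EBD2 (Foxh1 to a log2 change of 0.58). The order in EBD5 with offsets was not tested.

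The balance of the Lefty inhibitors to their ligand moved in one direction over the groups. The ratio of the summed Lefty1 and Lefty2 levels per kilobase to that of Nodal was 3.22, 3.25 and 3.02 in the EBD2 libraries, 2.59, 2.49 and 2.30 in EBD5, and 1.70, 1.69 and 1.74 in EBD6. The groups did not overlap, and their means were 3.13 ± 0.152 (SD, n = 2), 2.46 ± 0.144 (SD, n = 3) and 1.71 ± 0.0159 (SD, n = 2). The differences of the log2 ratio were -0.35 for EBD5 against EBD2, -0.52 for EBD6 against EBD5 and -0.87 for EBD6 against EBD2. Two-sided exact permutation tests gave p = 0.2, 0.2 and 0.333, which are the smallest values that these numbers of samples allow. With 9 separate libraries each of the 3 gave p = 0.1, again the smallest possible by the exact test. Unlike several single genes, this ratio kept its direction with GC and length offsets, at differences of -0.31, -0.55 and -0.86.

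The ratio of Lefty1 to Lefty2 per kilobase was 1.07, 1.06 and 1.06 in EBD2, 1.15, 1.10 and 0.965 in EBD5, and 1.26, 1.31 and 1.34 in EBD6. EBD6 lay above both other groups, which overlapped. The log2 difference of EBD6 against EBD5 was 0.27 (exact permutation p = 0.2) and of EBD6 against EBD2 0.28 (exact permutation p = 0.333), the smallest p in either case. Once GC and length offsets were added, the first turned to -0.43 and the second was 0.18. EBD5 against EBD2 differed by 0.01 (exact permutation p = 1), and by 0.61 with the offsets. The ratio of Smad2 to Smad3 was 0.983, 0.968 and 1.05 in EBD2, 0.852, 0.839 and 0.982 in EBD5, and 0.778, 0.637 and 0.628 in EBD6. It was lowest in EBD6, without overlap, and EBD2 and EBD5 overlapped. The log2 difference of EBD6 against EBD2 was -0.53 (exact permutation p = 0.333, the smallest possible) and -0.38 with the offsets. That of EBD6 against EBD5 was -0.34 (exact permutation p = 0.2, the smallest possible) and turned to 0.15. For EBD5 against EBD2 it was -0.18 (exact permutation p = 0.4), and -0.52 with the offsets. The ratio with offsets was thus lowest in EBD5.

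**Figure D3:**
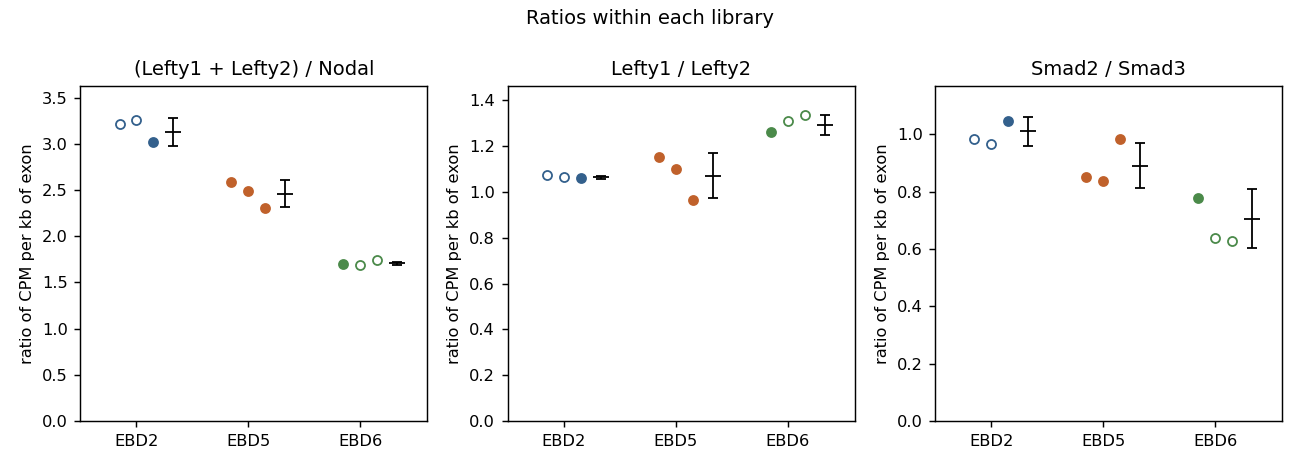
Ratios of levels per kilobase of exon (vertical axes, from 0) in each library by group, for the summed Lefty genes to Nodal, Lefty1 to Lefty2, and Smad2 to Smad3. Circles are as in the plot of levels by library, and black marks are group means ± SD. The Lefty to Nodal ratio is 3.02 or more in all EBD2 libraries and 1.74 or less in all EBD6 libraries.

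A further 31 genes of the pathway were followed by role, of which Acvr1c, a type I receptor gene, had too few counts to be tested. From EBD2 to EBD5 16 of the 30 tested rose and 9 fell, from EBD5 to EBD6 13 rose and 11 fell, and in EBD6 against EBD2 16 were higher and 9 lower. The shares of all tested genes were 34.9% higher and 35.1% lower, 36.9% and 33.3%, and 33.8% and 32.3%. The median log2 changes of the list were 0.24, -0.11 and 0.21, against -0.01, 0.04 and 0.01 over all genes. Among receptor genes, the co-receptor gene Tdgf1 fell at each step. It stood at 397.2, 400.4 and 427.4 CPM in EBD2, 222.0, 232.1 and 229.9 CPM in EBD5, and 151.5, 123.6 and 124.5 CPM in EBD6. Tdgf1 fell by 0.86 on the log2 scale to EBD5 (± 0.08 SE, adjusted p = 3.63e-06) and by a further 0.74 to EBD6 (± 0.09 SE, adjusted p = 1.59e-05), and both falls passed with GC and length offsets too. The related co-receptor gene Cfc1 was low and rose from EBD2 to EBD5 (log2 2.88 ± 0.40 SE, adjusted p = 7.44e-05), to 3.95, 4.18 and 4.34 CPM. The type II receptor gene Acvr2a rose from EBD2 to EBD5 (log2 0.79 ± 0.08 SE, adjusted p = 6.67e-06), and with the offsets the rise was 0.37 (adjusted p = 0.00357).

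Among other ligands of the family, the activin subunit gene Inhbb fell from EBD2 to EBD5 (log2 -4.58 ± 0.49 SE, adjusted p = 9.09e-06), from 7.80, 5.87 and 4.93 CPM to 0.180, 0.167 and 0.378 CPM. Inhba, the gene of another activin subunit, went the other way, from 3 counts over the EBD2 libraries to 39 in EBD5, 13.7 times as much at these depths (95% interval of the ratio 4.34 to 69.1). Gdf1, a Nodal co-ligand gene, had 82 counts in EBD2 (35.17, 37.08 and 9.48 by library) and none in EBD5. Against a floor of 3 counts summed over the EBD5 libraries, Gdf1 was at least 26.0-fold lower there. That bound covers counting error only. Its exons lie wholly within those of Cers1 on the same strand, so its counts are uncertain. All 3 other extracellular antagonists, Dand5, Fst and Fstl3, fell from EBD2 to EBD5, by 1.04, 0.71 and 0.71 on the log2 scale (adjusted p = 0.000269, 0.00247 and 0.0116). The fall of Fstl3 was lost with GC and length offsets (log2 -0.26, adjusted p = 0.309). Fst, whose product follistatin binds activins, then rose 7.01-fold from EBD5 to EBD6 (log2 2.81 ± 0.13 SE, adjusted p = 3.55e-08), to 37.2, 37.7 and 35.2 CPM, and the related Fstl3 rose 5.88-fold (log2 2.56 ± 0.17 SE, adjusted p = 3.56e-07). Both convertase genes, whose proteases are known to cleave the Nodal precursor, rose from EBD5 to EBD6, Furin by a log2 change of 0.89 ± 0.09 SE (adjusted p = 8.25e-06) and Pcsk6 by 0.91 ± 0.08 SE (adjusted p = 2.51e-06). With the offsets these rises were 0.44 and 0.24 (adjusted p = 0.000476 and 0.014).

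Of 5 further mediators 3 rose and 1 fell from EBD2 to EBD5, and 2 rose and 3 fell from EBD5 to EBD6. Smad4, the common partner of Smad2 and Smad3, rose from EBD2 to EBD5 (log2 0.46 ± 0.06 SE, adjusted p = 6.46e-05). Eomes, a T-box factor gene downstream of Nodal, rose 4.7-fold to EBD5 (log2 2.23 ± 0.08 SE, adjusted p = 3.29e-09) and fell 2.01-fold to EBD6. Of 7 inhibitors of Smad signalling 4 rose and 1 fell from EBD2 to EBD5, and 2 rose and 4 fell from EBD5 to EBD6 (0 and 6 with GC and length offsets). Skil, which encodes the Smad corepressor SnoN, stood at 290, 298 and 307 CPM in EBD2, 417, 447 and 433 CPM in EBD5, and 157, 158 and 150 CPM in EBD6. It rose to EBD5 (log2 0.53 ± 0.06 SE, adjusted p = 2.05e-05, and 0.29 with the offsets) and fell 2.78-fold from EBD5 to EBD6 (log2 -1.48 ± 0.06 SE, adjusted p = 2.27e-08). Smad7, the inhibitory Smad gene, was 1.99-fold higher in EBD6 than in EBD2 (log2 0.99 ± 0.10 SE, adjusted p = 7.38e-06).

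Of 6 transcription factor genes known as targets, 5 rose and none fell from EBD2 to EBD5, and 2 rose and 3 fell from EBD5 to EBD6 (1 and 5 with GC and length offsets). Lhx1 had the largest rise to EBD5, at 0.509, 0.326 and 0.528 CPM in EBD2 against 122, 143 and 136 CPM in EBD5 (log2 8.17 ± 0.18 SE, adjusted p = 1.06e-10). It was at 46.0, 49.6 and 51.9 CPM in EBD6. Foxa2 rose to EBD5 as well (log2 6.21 ± 0.23 SE, adjusted p = 3.43e-09). T (Brachyury) did not pass from EBD2 to EBD5 (adjusted p = 0.109) and rose from EBD5 to EBD6 (log2 3.95, adjusted p = 5.27e-08). Otx2 fell from EBD5 to EBD6 (log2 -1.64, adjusted p = 1.82e-08), in the same comparison as Hhex (log2 -0.91, adjusted p = 9.93e-06). Nodal, Lefty1 and Lefty2, themselves known targets, thus fell from EBD2 to EBD5 while 5 of these 6 rose.

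**Figure D4:**
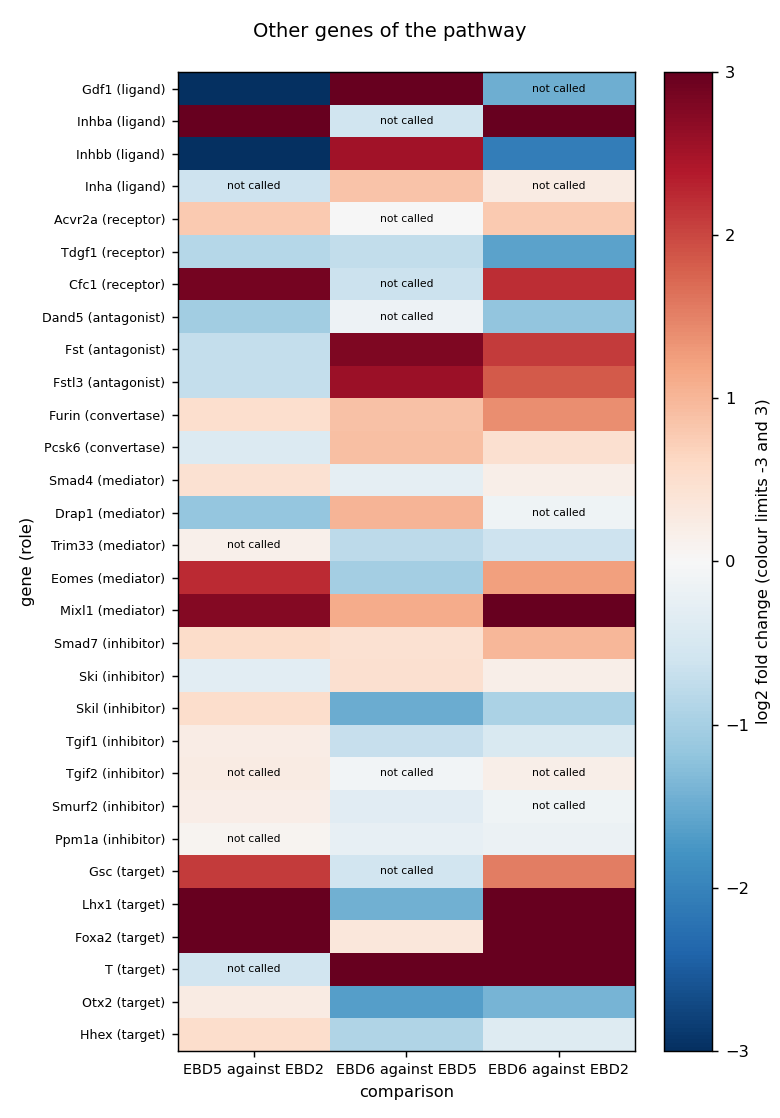
Log2 fold changes of the 30 tested further genes of the pathway (vertical axis, with role) in the 3 comparisons (horizontal axis), as colour, red for higher and blue for lower in the group named first, with colours limited at -3 and 3. Changes that did not pass are marked "not called". Fst and Fstl3 are blue in EBD5 against EBD2 and red in EBD6 against EBD5, and Tdgf1 is blue in all 3.

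The cells of origin, embryonic stem cells, still had their markers in every group. The 9 listed markers of stem cells and epiblast summed to 1856 to 2086 CPM in EBD2, 1546 to 1627 CPM in EBD5 and 1323 to 1431 CPM in EBD6, with none at 0. From EBD2 to EBD5 3 of them rose and 3 fell, from EBD5 to EBD6 3 rose and 4 fell, and in EBD6 against EBD2 1 was higher and 5 lower. Parietal endoderm markers (5) summed to 324 to 335, 1336 to 1429 and 1363 to 1475 CPM. Primitive streak markers (6) summed to 31.3 to 41.1, 151 to 158 and 129 to 145 CPM, trophoblast markers (6) to 39.6 to 40.9, 59.7 to 67.4 and 273 to 284 CPM, and fibroblast markers (5) to 24.4 to 25.2, 80.7 to 87.1 and 137 to 154 CPM. From EBD2 to EBD5 4 of 4 tested parietal endoderm markers rose, as did 5 of 6 of the streak, 4 of 5 of trophoblast and 2 of 4 of fibroblasts. From EBD5 to EBD6 2, 5, 5 and 3 of these rose. Cdx2 and Elf5 of the trophoblast list had no count in EBD2, and T, Mixl1 and Eomes of the streak list are also pathway genes here. Single genes carried some sums, such as Tfap2c (mean 38.2 CPM) for trophoblast in EBD2 and Pdgfra (67.3 CPM) for fibroblasts in EBD5. Thy1 of the fibroblast list fell, at 22.5, 7.63 and 2.77 CPM in EBD2, EBD5 and EBD6. Of the streak list only Eomes fell from EBD5 (132.3 CPM) to EBD6 (65.4 CPM). The groups thus differed in markers listed for several cell types at once. The sums do not measure numbers of cells, and the part of cell types in the changes of the Nodal genes was not tested.

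Genes whose pattern over the 3 groups was most like that of a member were found by differences in log2 change. The larger of the differences in EBD5 against EBD2 and in EBD6 against EBD5 was used. The search covered 13342 genes outside the lists with at least 5 CPM on average in some group. Nearest to Nodal were Dnajc7, Taf15 and Bckdhb, within 0.01 to 0.02. Nearest to Lefty2 were Rhbdl3, Prr23a3 and Dyx1c1 (0.01 to 0.03), and nearest to Gdf3 were Ilf2, Ndrg4 and Scyl3 (at most 0.01). Nearest to Cer1 were Bco1 (0.18), Pga5 (0.21) and Cyp26a1 (0.39). These larger distances are uncertain, since the change of Cer1 from EBD2 to EBD5 rests on 1 count in EBD2. Its log2 value ranged from 7.83 to 10.8 over settings. Like Cer1, these 3 genes were close to absent in EBD2, with means of 0, 0.125 and 0.342 CPM. They stood at 5.23, 71.5 and 91.1 CPM in EBD5 and 2.23, 29.9 and 49.9 CPM in EBD6. The measure rests on 3 group means in the fit without GC and length offsets, and describes only a shared shape. With these offsets the change of Nodal from EBD5 to EBD6 turned in sign (log2 -0.07).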

How the data were processed

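Polyadenylated RNA of 9 libraries in 3 groups was analysed. The authors deposited expected counts per gene, which are estimates of reads and can hold fractions, with no scaling to depth or length. Per the submitters' processing notes, the tools were STAR 2.7.10a and RSEM 1.3.30, besides cutadapt 1.18, DESeq2 1.38.3 and edgeR 3.40.2, and the build was mm10, with no order of steps. Annotation and strand setting: not given in the sources used here. A second table held values identical in all 54233 rows.

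Expected counts were rounded. The 1 row that names no gene (at most 0.0157% of a library) was left out. Symbols, positions, exon lengths and the GC content of the longest transcript came from GENCODE M21, which held 99.9% of the IDs, and where IDs shared a symbol the one with most counts was used. Pairs of libraries that a chi-square test could not tell from counting noise (minimum of 20 counts a gene, values per gene 0.949 and 1.01) were summed, leaving 7 samples. The test was edgeR 4.0.16 (R 4.3.3), quasi-likelihood F test after TMM scaling, on the 16168 genes that passed filterByExpr, with all groups in one fit, 4 residual degrees of freedom, no covariates, and calls at a Benjamini-Hochberg adjusted p under 0.05. The SE is the log2 change divided by the square root of F. The fit was tested on simulated data in which few genes changed and no GC effect was built in. That test does not cover the GC shift of EBD5 or the large share of genes called here. Offsets for GC and length were medians of 10 by 10 bins per sample. Alternatives used DESeq2 1.42.0, limma 3.58.1 and others given at the end.

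All 10 members are named, and of the other lists up to 4 called genes per list and comparison with the largest change. Members and lists were chosen with earlier results of these data known. A pathway gene and a sequence are not reported here, and counts leave that gene out.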

Additional observations from a re-analysis of the deposited data

How the results depend on the processing

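Tested against a fold of 1.5, 5606 genes (of 11319) were called for EBD5 against EBD2, 5317 (of 11356) for EBD6 against EBD5 and 4918 (of 10685) for EBD6 against EBD2. The members called higher were then 1, 0 and 1, and those called lower 3, 1 and 2. Of the other pathway genes 8 were higher and 5 lower in the first comparison, 9 and 7 in the second, and 13 and 5 in the third. For EBD6 against EBD5, 1 member was lower with no filter on low counts, and leaving out single libraries gave 1 to 3 members lower and 2 to 4 higher, the 1 being without EBD6 replicate 1. With GC and length offsets, chosen after seeing the data, 1 member was higher and 6 lower there, and 8 other pathway genes were higher and 15 lower, against 13 and 11 without offsets.

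In the fit with these offsets the direction turned, from EBD2 to EBD5, for Foxh1 (log2 0.58), Pcsk6 (0.0086), Ski (0.10) and Ppm1a (-0.14), and for Inha (0.14) and Trim33 (-0.061), which passed in neither fit. From EBD5 to EBD6 it turned for Nodal (-0.071), Lefty1 (-0.80), Smad2 (0.21), Foxh1 (-0.72), Inha (-0.076), Acvr2a (0.56), Smad7 (-0.22), Ski (-0.17), Ppm1a (0.12) and Foxa2 (-0.27), and for the log2 ratios of Lefty1 to Lefty2 (-0.43) and of Smad2 to Smad3 (0.15). In EBD6 against EBD2 it turned for Ski (-0.067), and for Foxh1 (-0.14), which passed in neither fit. Of changes called without it, subtracting the medians of the same bins turned Pcsk6 (0.078) and Ski (0.17) from EBD2 to EBD5, Nodal (-0.11), Foxh1 (-0.74), Inha (-0.089), Smad7 (-0.20), Ski (-0.21), Ppm1a (0.11) and Foxa2 (-0.31) from EBD5 to EBD6, and Ski (-0.12) in EBD6 against EBD2. Of members not called, it turned Foxh1 from EBD2 to EBD5 (0.66) and in EBD6 against EBD2 (-0.24), and Lefty1 (-0.82) and Smad2 (0.24) from EBD5 to EBD6. The cause was not tested. The Lefty1 to Lefty2 ratio of EBD5 against EBD2, near 0, ranged from -0.048 to 0.080 when single libraries were left out. The ratio of the Lefty sum to Nodal kept its direction in every alternative run.

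Same-numbered libraries did not deviate together (correlations -0.0881 to 0.0541), so no pairing by number was seen. Libraries of the summed pairs differed by counting noise alone, so this check could hardly show a pairing there and does not exclude one. A fit of 9 libraries with the replicate number as a block called 11512, 11678 and 11452 genes, against 11697, 11895 and 11656 for 9 libraries without it.

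With 4 residual degrees of freedom and 2 or 3 samples a group, calls of small changes (Gdf3, Acvr2b, Smad2, Foxh1) depended on single libraries, the filter or the tool. That of Lefty2 between EBD5 and EBD6 depended on the scaling, the filter and the samples counted. Depth limits Cer1 in EBD2, where 1 count sets the ratio, and Gdf1 and Inhba.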
